A study of Mus musculus with 4 samples.

Results

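The genes described here encode the histones, the proteins around which nuclear DNA is wound. They were chosen by symbol, and every gene with at least 5 estimated counts summed over the 4 libraries was kept. This gave 51 genes of the 18872 listed in the deposited files, 41 of them replication-dependent (3 H1, 12 H2A, 11 H2B, 5 H3 and 10 H4 genes) and 10 encoding replacement variants. The reference gene table holds 66 replication-dependent histone genes, of which 59 were listed and 18 fell under the minimum. Just inside the minimum were H2ac15 with 5.16 and H3c10 with 5.82 summed counts, and just outside were H2bc13 with 4.54 and H3c6 with 4.50. Of the testis-specific H2al genes 6 were listed, none with more than 3 summed counts, and Cenpa is outside the rule.

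RNA was sequenced from primary mouse colon epithelial cells after 3 days of 2% dextran sulfate sodium (DSS), which damages the gut lining and brings on colitis. Wild-type mice gave 2 libraries, and mice labelled EZH2-IEC-/-, a knockout of Ezh2 in the intestinal epithelium, gave the other 2. Mice of both genotypes received DSS, so each difference below is one between genotypes under DSS, and untreated mice were not analysed here. Whether the libraries of a genotype represent different mice is not stated in the labels. The p-values therefore reflect only how much the libraries of a genotype differ, a spread that may be technical. The Cre driver, the deleted part of Ezh2 and the age of the mice are not given in the sources used here.

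Replication-dependent histone genes are made in bulk in S phase, when new DNA must be packaged. Their mRNAs normally end not in a poly(A) tail but in a short stem-loop that is bound by the protein SLBP, which guides the processing, translation and decay of the message. Some of them, H1f2 and H2bc21 among them, can also give polyadenylated messages in cells that have left the cell cycle. Variant histones such as H3.3 (H3f3a, H3f3b), H2A.Z (H2az1, H2az2) and macroH2A (Macroh2a1, Macroh2a2) are made throughout the cell cycle from ordinary polyadenylated messages, and replace canonical histones at chosen places in chromatin. Ezh2 is the enzyme of Polycomb repressive complex 2 that methylates lysine 27 of histone H3, so histones are its substrate. The library kit named in the labels is one that enriches polyadenylated RNA, which bears on how replication-dependent messages are sampled.

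The 16-base stem-loop is the feature that sets the class apart, so it is shown here for the members the results turn on. The lines below are transcript sequences, 5′ to 3′, with the stem-loop in capitals and 7 bases on each side.
H1f2: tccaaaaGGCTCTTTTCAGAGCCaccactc
H2ac18: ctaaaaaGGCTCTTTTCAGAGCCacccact
H2aw: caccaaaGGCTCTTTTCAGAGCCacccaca
H3c15: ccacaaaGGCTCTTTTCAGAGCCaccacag
H4c8: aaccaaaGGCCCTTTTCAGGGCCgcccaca
H4c9: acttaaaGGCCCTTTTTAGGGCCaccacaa
H2ax: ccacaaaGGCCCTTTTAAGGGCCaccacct
They come from GENCODE M21 transcripts on build GRCm38, and each lies in the 3′ untranslated part of a single-exon gene. The H1f2 element is at chr13:23739512-23739527 on the plus strand, that of H2ac18 at chr3:96246032-96246047 (plus) and that of H2aw at chr11:58955172-58955187 (plus). The H3c15 element is at chr3:96238485-96238500 on the minus strand. The H4 elements are at chr13:23531458-23531473 (plus) for H4c8 and at chr13:22040966-22040981 (minus) for H4c9, and that of H2ax is at chr9:44335240-44335255 (plus).

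A stem-loop of this kind was found after the stop codon in 29 of the 41 replication-dependent members, 34 of which have annotated bases there. It was found in 1 of 10 variants, H2ax, which is known to carry one, and in 73 of 21699 coding genes (0.336%). All 3 H1 genes and the 8 H2A genes with a match had the same 16 letters, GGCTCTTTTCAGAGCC. The 9 H4 genes with a match had other stems, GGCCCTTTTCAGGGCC in 5, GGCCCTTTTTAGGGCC in 2 and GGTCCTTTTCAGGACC in 2. The H2B genes H2bc4 and H2bc21, described below, had no match in their annotated transcripts. The annotated transcript ran 840 bases past the stem-loop in H1f2, 1643 in H2aw, 330 in H4c9 and 35 in H2ac18. The deposited length of H1f2 was 725 bases against 1560 for the GENCODE transcript.

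Promoters of the class also share short elements, counted in RefSeq promoters (GRCm38.p6, 250 bases before to 50 after the start) for 38 of 41 replication-dependent members, 9 of 10 variants and 27025 genes in all. CCAAT, on either strand, was present in 31 replication-dependent members (81.6%), 6 variants (66.7%) and 41.1% of all promoters. It was in every replication-dependent H1, H2A, H2B and H3 promoter counted, but in only 2 of 9 H4 promoters (22.2%). TATAAA on the gene's strand was present in 19 replication-dependent members (50.0%), 1 variant (11.1%) and 9.77% of all promoters. The octamer ATTTGCAT, a known element of H2B promoters, was present on either strand in 9 replication-dependent members (23.7%), 5 of them H2B genes, and in 1.97% of all promoters. The H1 box AAACACA was found in each of the 3 H1 genes and in 8.22% of all promoters on either strand. The promoters of the replication-dependent gene with the highest mean FPKM and of the variant with the smallest p are shown for the 250 bases before the start, with matches in capitals.
H1f2: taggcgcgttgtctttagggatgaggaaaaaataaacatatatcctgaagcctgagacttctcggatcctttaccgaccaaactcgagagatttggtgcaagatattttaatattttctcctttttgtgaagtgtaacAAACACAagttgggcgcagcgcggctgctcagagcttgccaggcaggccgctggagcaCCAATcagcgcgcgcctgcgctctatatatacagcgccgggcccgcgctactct
H2az1: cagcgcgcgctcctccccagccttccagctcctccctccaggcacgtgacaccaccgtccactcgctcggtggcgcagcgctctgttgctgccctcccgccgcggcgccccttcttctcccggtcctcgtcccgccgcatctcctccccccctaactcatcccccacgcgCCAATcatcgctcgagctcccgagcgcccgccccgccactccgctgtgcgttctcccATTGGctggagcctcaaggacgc
The first is chr13:23738557-23738806 (plus strand), with the H1 box beginning at -112 and CCAAT at -54 from the start. The second is chr3:137864237-137864486 (plus strand), with CCAAT at -80 and its reverse complement at -23. These matches are descriptions of letters, not of bound factors.

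The libraries held between 5037367 and 5446998 estimated counts, and Ezh2 was counted at 105 and 102 in wild type, against 86 and 83 in the knockout libraries. The Ezh2 difference (log2 fold change -0.27 ± 0.17, SE) did not pass edgeR's quasi-likelihood test (Benjamini-Hochberg adjusted p = 0.217). Since counts were given per gene and not per exon, they are no check of the deletion. Epithelial markers were present throughout, with 10 genes summing to between 8865 and 10175 FPKM (fragments per kilobase of transcript, scaled to library size), and 6 of the 10 were higher and 3 lower in the knockout. The 4 libraries also held other cell types. Markers of T and NK cells summed to 19.9 and 18.9 FPKM in wild type, against 80.7 and 78.0 in the knockout (9 of 9 tested genes higher, Trac not listed). Neutrophil markers summed to 6.9 and 10.3 against 155 and 132 (3 of 4 higher, Mpo and Elane at 0 or not listed). Most of that knockout sum was S100a8 (98.01 and 89.55 FPKM) and S100a9 (51.53 and 32.35). Csf3r was at 0.86 and 0.72 against 1.77 and 2.22, and Cxcr2, at 3.67 and 5.84 against 4.08 and 7.58, did not pass. Stromal markers summed to 1707 and 1875 against 790 and 1004 (6 of 7 lower), and macrophage and dendritic cell markers to 303 and 330 against 407 and 465 (6 of 8 higher). B and plasma cell markers summed to 304 and 276 against 406 and 471 (3 higher and 3 lower of 7), and erythroid markers to 118 and 93.1 against 13.1 and 27.1 (3 of 3 tested lower). The part of these cells in the histone values was not tested. In such bulk RNA, fewer cells of a type and less RNA per cell cannot be told apart.

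The summed level of the replication-dependent histone genes was lower in the knockout, while that of the variants overlapped between genotypes. The 41 replication-dependent members summed to 1165 and 1326 FPKM in the wild-type libraries, against 221 and 533 in the knockout libraries. Both knockout sums lay below both wild-type sums. Of these sums, H1f2, H2bc4 and H2ac18 together held 77.5% and 62.3% in wild type and 75.5% and 33.9% in the knockout. The high knockout value rests on 2 H2A genes, H2ac22 and H2ac23, which were counted almost only in replicate 2 of each genotype and are described below. Without them the sums were 1163 and 1142 against 218 and 275 FPKM, 4.68-fold lower in the knockout, against 3.30-fold with them. The 10 variants summed to 1250 and 1181 FPKM in wild type, against 1352 and 1230 in the knockout, where the groups overlap. This rests on H2az1, and the other 9 variants summed to 1030 and 969 against 884 and 851 FPKM. Replication-dependent messages made up 48.2% and 49.1% of all histone FPKM in wild type and 13.9% and 18.2% in the knockout when the H2ac22 and H2ac23 genes were left out, and 48.2% and 52.9% against 14.1% and 30.2% with them. No test was made of these sums. Since the kit enriches polyadenylated RNA, the shares describe the messages sampled, not those present in the cells.

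**Figure D1:**
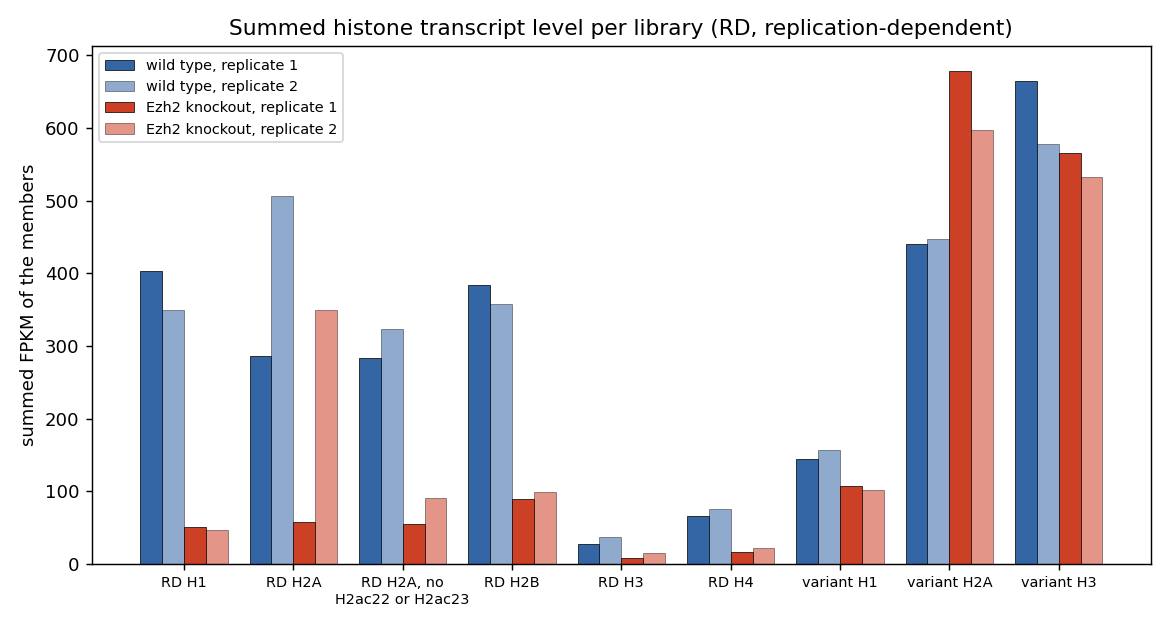
Summed FPKM of replication-dependent (RD) and variant histone genes by family, 1 bar per library, blue for wild type and red for Ezh2 knockout. Replication-dependent H1 stood at 403 and 349 in wild type, against 50.0 and 47.2 in knockout, and the RD H2A bars are shown with and without H2ac22 and H2ac23.

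The summed level was lower in both knockout libraries for H1, H2B, H3 and H4, and for H2A once H2ac22 and H2ac23 were left out. H1 genes summed to 403 and 349 FPKM in wild type, against 50.0 and 47.2 in the knockout, 7.73-fold lower. H2B genes summed to 384 and 357 against 89.8 and 99.4 (3.92-fold lower) and H4 genes to 66.1 and 75.9 against 15.8 and 21.9 (3.77-fold lower). In these families the groups were far apart and the summed values of a genotype close together. The H1 sum was mostly H1f2 (393 and 342 FPKM in wild type) and the H2B sum mostly H2bc4 (322 and 293). Single members did not all agree between replicates, as H2bc11 was at 37.85 and 2.77 FPKM in wild type. H2bc23 and H4bc24 had identical values (0.60 and 22.8 FPKM in wild type, 0.26 and 2.35 in the knockout), and both entered the H2B sum. H3 genes summed to 26.7 and 36.5 against 8.28 and 15.3 FPKM, 2.68-fold lower. H2A genes summed to 284 and 323 against 54.5 and 90.8 FPKM without H2ac22 and H2ac23, 4.18-fold lower, but to 286 and 507 against 57.4 and 349 with them, where the groups overlap.

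Of the 41 replication-dependent members, 22 had FPKM values lower in both knockout libraries than in both wild-type libraries (53.7%), against 40.0% of the 16563 genes with at least 5 summed counts. Only 2, H2bc12 and H2bc18, lay higher in both knockout libraries, against 27.6% of those genes, and 17 overlapped. The edgeR test across all 13608 genes that passed its filter on low counts included 17 of the 41. Of these, 12 were lower at an adjusted p under 0.05, against 20.8% of all genes tested, 0 were higher, against 23.0%, and 5 did not pass (43.7% of all genes tested were called in either direction). Of the 12, 6 (H1f3, H1f4, H2bc6, H2bc8, H4c8 and H4c18) passed the filter only through their wild-type counts, so that they had to differ to be tested, and the count of 12 is given as a description. The same holds for the median log2 fold change (knockout minus wild type), which was -1.97 over the 17 and -1.45 over the 11 others, with -0.002 for all genes tested.

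**Figure D2:**
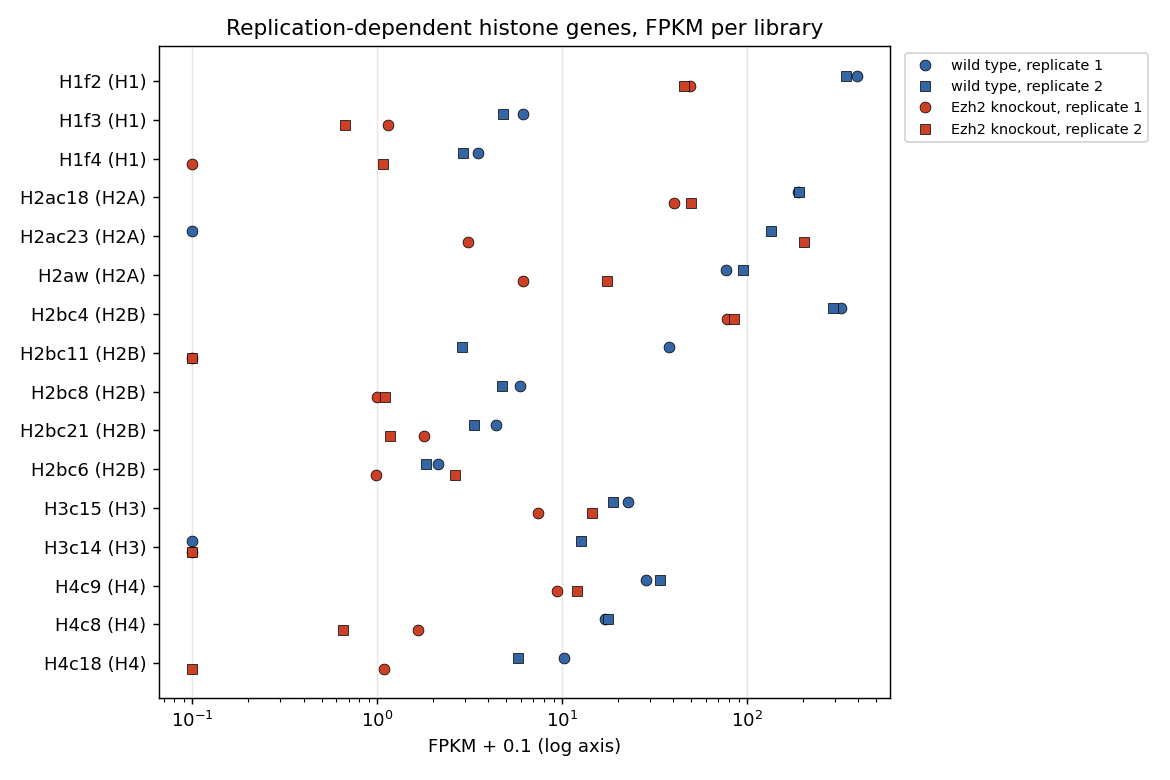
FPKM + 0.1 on a log axis for 16 replication-dependent histone genes, those past the threshold and the 2 most abundant of each family, 1 symbol per library. H1f2, H2ac18 and H2bc4 were the highest in wild type and lay far lower in both knockout libraries, while H2ac23 split by replicate number instead of genotype.

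Linker histones bind the DNA entering and leaving the nucleosome. H1f2 (H1.2, Entrez gene 50708) was the most abundant replication-dependent gene by mean FPKM over the 4 libraries. In the knockout libraries H2bc4 lay above it, at 78.0 and 85.0 FPKM. H1f2 was at 393 and 342 FPKM in the wild-type libraries, against 49.0 and 45.6 in the knockout libraries. The lowest wild-type value was thus several times the highest knockout value. The difference was -2.85 ± 0.11 (log2 fold change ± SE, 7.22-fold lower, edgeR adjusted p = 3.67e-07). It was past the threshold in all 12 alternative analyses, between -2.95 and -2.76. H1f3 (H1.3) was at 6.05 and 4.71 against 1.04 and 0.57 FPKM, a log2 fold change of -2.74 ± 0.52 (edgeR adjusted p = 0.00276). H1f4 (H1.4) was at 3.42 and 2.82 against 0 and 0.98 FPKM (-2.49 ± 0.81, edgeR adjusted p = 0.0345). Both rest on few reads in the knockout. Summed counts were 42 against 7 for H1f3, a ratio per library total of 6.33 (95% exact Clopper-Pearson interval 2.82 to 16.7). They were 24 against 4 for H1f4 (ratio 6.33, interval 2.18 to 25.1), whose call was lost in DESeq2 (adjusted p = 0.0933) and in edgeR without wild-type replicate 1, wild-type replicate 2 or knockout replicate 1 (adjusted p = 0.0951, 0.0669 and 0.216). The H1f4 call was also lost with no filter on low counts (adjusted p = 0.0778) and in limma on log2(FPKM + 0.1) (0.0659). Its fold change was -1.55 without knockout replicate 1 and -6.59 without knockout replicate 2, where the remaining knockout library is at 0 and the fitted value is no bound. Such intervals cover counting error only.

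H2A and H2B form the dimers on the flanks of the nucleosome core. Among the H2B genes, H2bc4 (older name Hist1h2bc) was the second most abundant member of the class by mean FPKM over the libraries. It was at 322 and 293 FPKM in wild type, against 78.0 and 85.0 in the knockout, with the libraries of each genotype close to each other. Its log2 fold change was -1.78 ± 0.11 (edgeR adjusted p = 3.53e-06). H2bc21 (Hist2h2be), which like H2bc4 showed no stem-loop in its annotated transcripts, was at 4.28 and 3.25 against 1.70 and 1.07 FPKM (-1.34 ± 0.31, edgeR adjusted p = 0.00739). The genes with and without an annotated stem-loop thus both included members that fell. H2bc8 was at 5.82 and 4.66 against 0.90 and 1.00 FPKM (-2.49 ± 0.60, edgeR adjusted p = 0.00893), from 23 against 5 summed counts (ratio 4.86, 95% interval 1.81 to 16.4).

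H2bc6 depended on the unit. Its counts were 16.3 and 16.8 in wild type against 2.97 and 5.71 in the knockout, which gave -1.82 ± 0.50 (edgeR adjusted p = 0.0167). Its FPKM values were 2.04 and 1.74 against 0.88 and 2.52, and overlapped. The deposited length of H2bc6 was 1591, 1844, 653 and 445 bases in these 4 libraries, so the FPKM divided the counts by different lengths. Limma on log2(FPKM + 1) gave -0.17 (adjusted p = 0.716). H2bc8 and H2bc6 were also lost in DESeq2 (adjusted p = 0.0765 and 0.101). Without wild-type replicate 1 neither passed (edgeR adjusted p = 0.053 for H2bc8 and 0.0597 for H2bc6), nor without knockout replicate 1 (0.0878 and 0.154). H2bc8 was lost without knockout replicate 2 (edgeR adjusted p = 0.0884) and H2bc6 without wild-type replicate 2 (0.0799). H2bc11 was counted at 76.3 and 5.80 in wild type, against 0 in both knockout libraries, and did not pass the filter. H2bc12 had counts of 7.59 and 6.34 in the knockout and none in either wild-type library, a level too low for the main test. It was past the threshold, and higher, in each of the 4 alternatives that included it, which is given as a description. With no wild-type counts, it could pass a filter on mean FPKM only through the knockout libraries. It thus had to differ to be included there.

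Among the H2A genes, H2ac18 (Hist2h2aa1) was at 188 and 191 FPKM in wild type, against 40.1 and 50.0 in the knockout. Its difference was -1.97 ± 0.12 (edgeR adjusted p = 3.98e-06). H2aw (Hist3h2a), an H2A gene on chromosome 11 outside the large clusters, was at 76.5 and 94.9 against 6.03 and 17.3 FPKM. Neither gene overlapped between genotypes, and the H2aw difference was -2.77 ± 0.32 (edgeR adjusted p = 0.000182). It was -3.68 without knockout replicate 2 and -2.22 without knockout replicate 1, past the threshold in both. H2ac19, a near-identical copy next to H2ac18 with the same stem-loop window, was counted at 14.0 and 54.2 against 0 and 14.0 (-2.23 ± 0.91) and did not pass (edgeR adjusted p = 0.0755). How reads were shared between these copies is not known, so the H2ac18 value is uncertain to that extent.

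H2ac23 and H2ac22 followed the replicate number. H2ac23 was counted at 0 in wild-type replicate 1, 369 in wild-type replicate 2, 8.47 in knockout replicate 1 and 586 in knockout replicate 2. H2ac22 was counted at 4.51, 109, 0 and 123 in the same order. The genotypes overlapped, and neither gene passed (log2 fold changes 0.72 ± 1.33 and 0.14 ± 1.20, edgeR adjusted p = 0.691 and 0.937). The H2ac23 difference was -4.45 without knockout replicate 2 and 11.21 without wild-type replicate 2. Together these genes held 0.2% and 13.9% of the replication-dependent FPKM in wild type and 1.3% and 48.5% in the knockout. The 28S ribosomal RNA gene Rn28s1 also moved with the number, at 11677 and 138 counts in wild type, against 11933 and 90.1 in the knockout, and the replicate 1 and replicate 2 files list other genes and transcripts. The part of either in the H2ac22 and H2ac23 values was not tested. H2ac10, at 5.07 and 7.40 against 0 and 13.4 FPKM, did not pass either (edgeR adjusted p = 0.878).

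H3 and H4 form the tetramer at the core of the nucleosome, and the H3 tail carries the lysine that Ezh2 methylates. The main replication-dependent H3 gene, H3c15 (Hist2h3c2), was at 22.5 and 18.7 FPKM in wild type, against 7.33 and 14.4 in the knockout. The genotypes did not overlap, but the knockout libraries lay far from each other, and the difference of -0.81 ± 0.31 did not pass edgeR's test (adjusted p = 0.0627). Without knockout replicate 2 it was -1.36 (edgeR adjusted p = 0.00283). H3c14, which shares its stem-loop window with H3c15, was counted at 41.9 in wild-type replicate 2 and at 0 in the other libraries, and was not tested.

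Of the 3 tested H4 genes, H4c8 and H4c18 had the lowest fitted fold changes of the class. Both passed the filter only through their wild-type counts, so they had to differ to be tested. H4c8 was at 17.1 and 17.5 FPKM in wild type, against 1.56 and 0.55 in the knockout (-4.07 ± 0.50, edgeR adjusted p = 0.000257). Its summed counts were 72 against 5, a ratio of 15.2 with a 95% interval of 6.22 to 48.2, and the fold change was -5.0 without knockout replicate 1. H4c9, the more abundant gene, was at 28.5 and 33.7 against 9.33 and 12.0 FPKM, with no overlap (-1.45 ± 0.27, edgeR adjusted p = 0.00241). H4c18 was at 10.2 and 5.69 against 0.99 and 0 FPKM (-3.58 ± 0.85, edgeR adjusted p = 0.00861). With 27 against 2 summed counts its ratio was 14.3 with a 95% interval of 3.58 to 124, and it did not pass without knockout replicate 2 (-2.65, edgeR adjusted p = 0.0632). Without knockout replicate 1 the fitted value was -6.77, against a library at 0.

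The remaining 24 replication-dependent members had between 5.2 and 82.1 summed counts and were not tested. Their counts summed to 164 and 252 in wild type, against 55.8 and 60.8 in the knockout, and 18 of the 24 had a higher mean count in wild type. H2bc23 and H4bc24, an H2B gene by its older name, had identical values in each library (6.45, 55.4, 3.03 and 5.51 counts, wild type first) and are in effect 1 reading. Both are nevertheless included in the sums and member counts given here. Counts were whole in all 4 libraries for only 2 of the 41 members, against 5 of the 10 variants, and most replication-dependent counts were fractions. Summed by family they were within 0.02 of a whole number in 4 libraries for H1, 3 for H4, 1 for H3 and 0 for H2A and H2B, with distances of up to 0.41 for H2A. Values of single replication-dependent genes are uncertain to the extent that reads were shared out. Small nuclear and nucleolar RNAs, which also lack a poly(A) tail, were counted at 86.5 and 84.6 in wild type, against 106 and 112 in the knockout, and their part in the histone values was not tested.

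**Figure D3:**
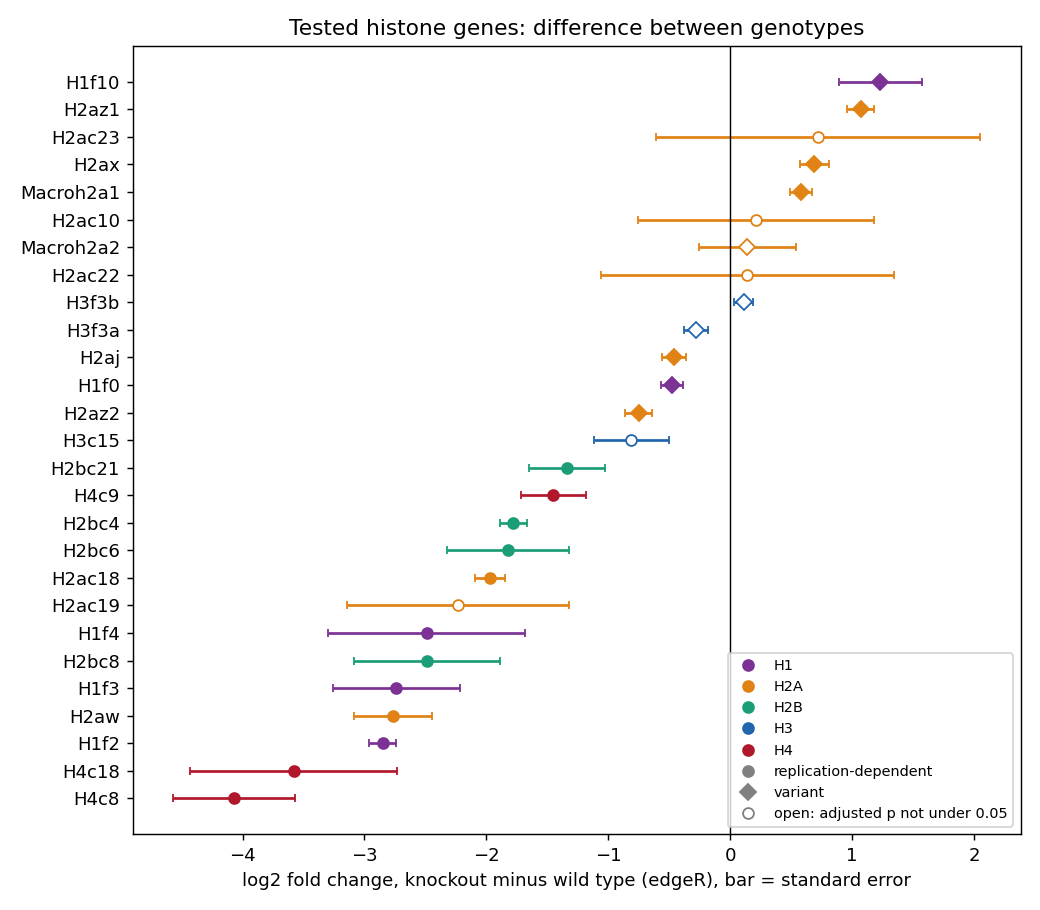
Log2 fold change (knockout minus wild type, edgeR) with its standard error for the 27 tested histone genes, coloured by family, circles for replication-dependent genes and diamonds for variants. Filled symbols passed an adjusted p of 0.05, and among them the replication-dependent genes lie between -4.07 and -1.34 and the variants between -0.75 and 1.23. Of the filled replication-dependent genes, 6 passed the filter on low counts only through wild type, with H4c8 at -4.07 among them, and had to differ to be tested.

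All 10 variant members were tested, and they moved in both directions. Of these, 4 were higher in the knockout (40.0% of the variants, against 23.0% of all genes tested), 3 lower (30.0%, against 20.8%) and 3 did not pass, with a median log2 fold change of 0.13. The H2A.Z genes moved apart. H2az1 (H2A.Z.1), which marks nucleosomes at promoters, was at 220 and 213 FPKM in wild type, against 468 and 379 in the knockout. Its difference was 1.07 ± 0.11 (2.10-fold higher, edgeR adjusted p = 7.21e-05). H2az2 (H2A.Z.2), its close paralog, was at 38.1 and 41.8 against 22.4 and 21.9 FPKM, a difference of -0.75 ± 0.11 (edgeR adjusted p = 0.00058). Neither gene overlapped between genotypes. The ratio of H2az1 to H2az2 was 5.77 and 5.09 in wild type and 20.9 and 17.3 in the knockout. H2az1 alone held 17.6% and 18.0% of the variant FPKM in wild type and 34.6% and 30.8% in the knockout.

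**Figure D4:**
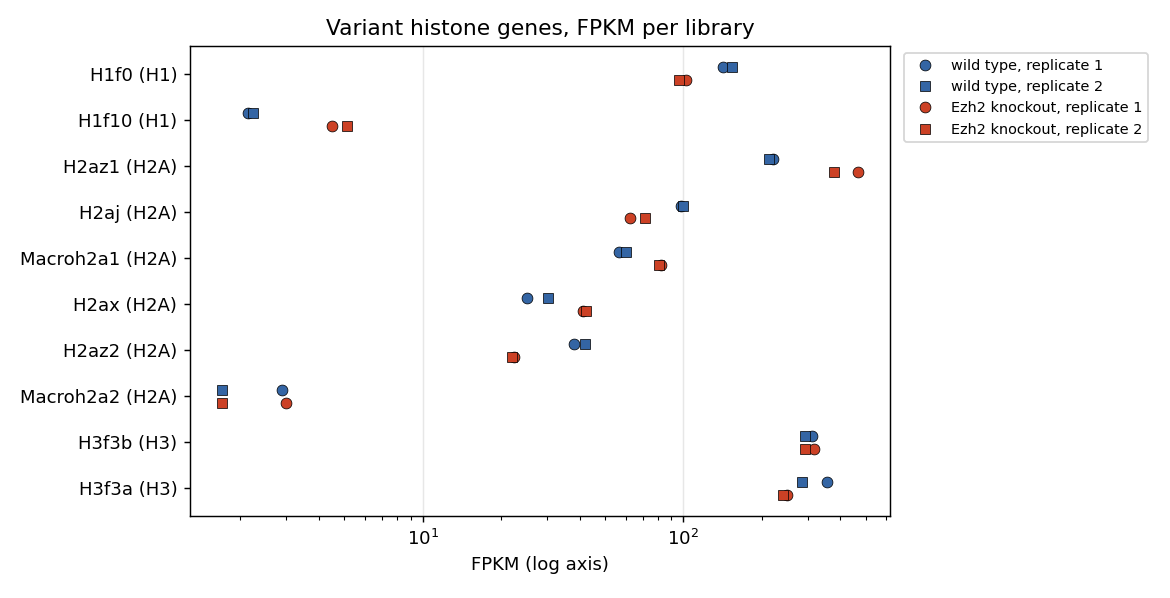
FPKM on a log axis for the 10 variant histone genes, 1 symbol per library. H2az1, H2ax, Macroh2a1 and H1f10 were higher in both knockout libraries, H2az2, H2aj and H1f0 lower, and Macroh2a2 paired by replicate number.

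Among the other H2A variants, H2ax, whose product is phosphorylated at DNA breaks, was at 25.2 and 30.3 FPKM in wild type, against 41.4 and 42.1 in the knockout (0.69 ± 0.12, edgeR adjusted p = 0.0017). H2ax, the variant with a stem-loop, was thus higher in both knockout libraries. Macroh2a1, a variant with a large globular domain linked to silent chromatin, was at 56.8 and 60.4 against 82.0 and 80.9 FPKM (0.58 ± 0.09, edgeR adjusted p = 0.000923). Macroh2a2 was at 2.89 and 1.70 against 3.00 and 1.70 FPKM and did not pass (0.14 ± 0.40, edgeR adjusted p = 0.801). Its values followed the replicate number, and its sign turned without wild-type replicate 2 (-0.20) or knockout replicate 1 (-0.31). H2aj was at 97.7 and 99.8 against 62.3 and 71.2 FPKM, a fall of -0.46 ± 0.10 on the log2 scale with no overlap (edgeR adjusted p = 0.00478).

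The H1 variants also parted. H1f0 (H1.0), the linker histone known to accumulate in differentiated cells, was at 142 and 154 FPKM in wild type, against 102 and 96.0 in the knockout (-0.48 ± 0.09, edgeR adjusted p = 0.00202). H1f10 (H1X) was at 2.15 and 2.24 against 4.50 and 5.12 FPKM (1.23 ± 0.34, edgeR adjusted p = 0.0173). It rests on 12 and 13 against 27 and 31 counts, and did not pass in DESeq2 (adjusted p = 0.11) or in edgeR without any 1 of the 4 libraries (adjusted p between 0.0548 and 0.0985). The linker histone message with the highest FPKM differed by genotype. Since the kit enriches polyadenylated RNA, it may sample H1f2 and H1f0 unequally, and their true ranking in the cells is not known. H1f2 was 2.76 and 2.22 times the FPKM of H1f0 in wild type and 0.48 times in both knockout libraries.

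Neither of the H3.3 genes, which encode 1 protein from separate loci, passed the test. H3f3b was at 311 and 294 FPKM in wild type, against 316 and 292 in the knockout, with overlapping groups (0.11 ± 0.08, edgeR adjusted p = 0.302). H3f3a was at 354 and 284 against 250 and 240 FPKM, without overlap, and did not pass (-0.28 ± 0.10, edgeR adjusted p = 0.0587), although it passed in 6 of the 12 alternatives. Together the H3.3 genes held 53.2% and 48.9% of the variant FPKM in wild type and 41.8% and 43.3% in the knockout. In FPKM the H3.3 genes stood far above the replication-dependent H3 genes in every library, at 665, 578, 566 and 532 against 26.7, 36.5, 8.28 and 15.3. The kit enriches polyadenylated RNA, and replication-dependent messages normally lack a poly(A) tail. These values thus rank the messages sampled, not those present in the cells.

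Lists of genes that make, carry and use histones were then set beside the histone genes. In the S phase list 13 of 25 genes were higher, against 23.0% of all genes tested, and 0 lower, against 20.8% (median log2 fold change 0.52). Rrm2, the small subunit of ribonucleotide reductase, was at 7.39 and 6.94 FPKM in wild type, against 25.8 and 19.5 in the knockout (1.76 ± 0.17, edgeR adjusted p = 6.02e-05). Fen1, the flap endonuclease of lagging-strand synthesis, was at 9.33 and 9.74 against 19.8 and 18.0 FPKM (1.07 ± 0.13, edgeR adjusted p = 0.00027). Mcm3, a subunit of the replicative helicase, was at 10.1 and 10.1 against 16.6 and 16.7 (0.83 ± 0.12, edgeR adjusted p = 0.000554). Fold changes of the list ran from -0.32 to 1.76, and 23 of the 25 were positive. The cells that gave these messages are not resolved in bulk RNA.

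**Figure D5:**
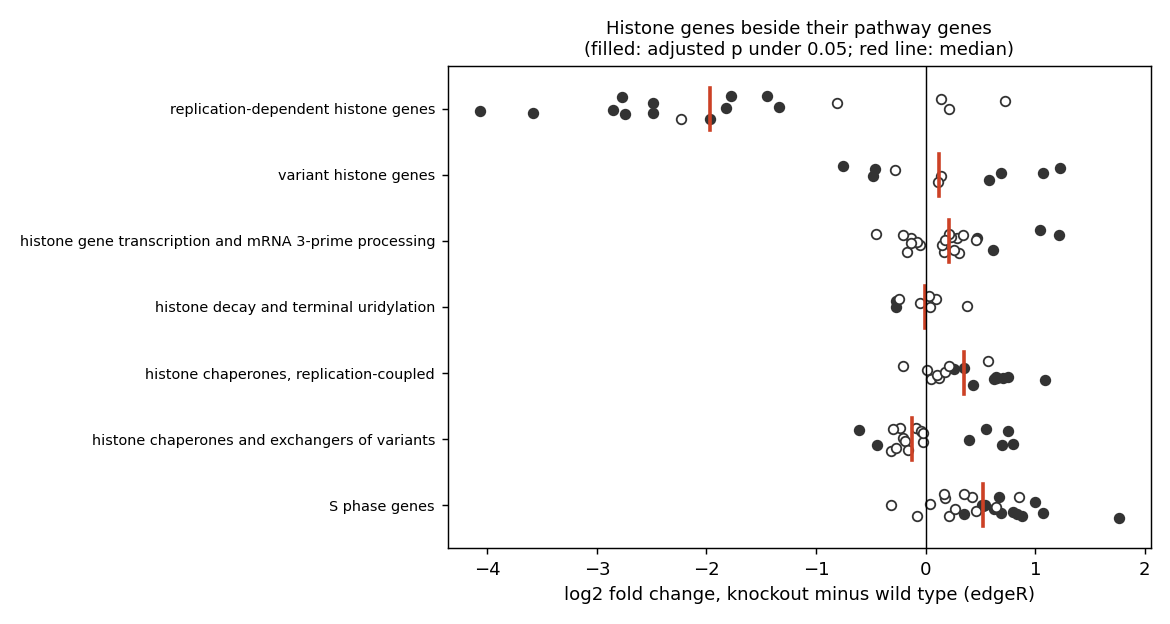
Log2 fold change (knockout minus wild type, edgeR) of each tested gene in the histone classes and in 5 lists of related genes, filled where the adjusted p was under 0.05, with a red line at the median. The tested replication-dependent genes have a median of -1.97 (-1.45 without the 6 that passed the filter only through wild type), while S phase genes have a median of 0.52 and replication-coupled chaperones of 0.35.

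Histone chaperones that work at replication forks were higher for 9 of 17 genes (52.9%, against 23.0% of all genes tested) and lower for 0, against 20.8% (median 0.35). Asf1b, which hands H3 and H4 to the assembly factor, was at 5.36 and 5.64 FPKM in wild type, against 10.5 and 11.4 in the knockout (1.09 ± 0.19, edgeR adjusted p = 0.00197). Chaf1a, the large subunit of chromatin assembly factor 1, was at 4.71 and 5.04 against 6.94 and 7.93 (0.71 ± 0.16, edgeR adjusted p = 0.00661). Nasp, which keeps a reserve of soluble H3 and H4, was at 17.1 and 17.0 against 26.7 and 25.9 (0.75 ± 0.11, edgeR adjusted p = 0.000564). Both libraries of the knockout lay above both of the wild type for these 3 genes. Set rose by 0.64 ± 0.09 and Anp32b by 0.62 ± 0.10 on the log2 scale (edgeR adjusted p = 0.000498 and 0.000906).

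In the list for histone gene transcription and 3′ end formation, 4 of 21 tested genes were higher (19.0%, below the 23.0% of all genes tested) and 0 lower, against 20.8% (median 0.21). Slbp, the stem-loop binding protein, was at 21.3 and 21.7 FPKM in wild type, against 26.8 and 22.6 in the knockout, and did not pass (0.30 ± 0.12, edgeR adjusted p = 0.0772). Npat, the coactivator of histone gene loci, was at 2.21 and 2.26 against 1.74 and 1.31 and did not pass (-0.45 ± 0.21, edgeR adjusted p = 0.109). Neither therefore showed a change past the threshold, which does not show that they were equal. Ccne1, the cyclin whose kinase acts on Npat, rose by 1.22 ± 0.26 (edgeR adjusted p = 0.00476), and Cstf2, a shared 3′ end processing factor, by 1.04 ± 0.12 (adjusted p = 0.00022). Ncbp1, a cap-binding subunit, rose by 0.47 ± 0.12 (edgeR adjusted p = 0.0125). Of the 8 genes for histone mRNA decay, Upf1 and Smg1, which act together when replication stops, each had a log2 fold change of -0.27 (edgeR adjusted p = 0.0465 and 0.0353), and the other 6 did not pass. Lsm1, which binds the uridylated end of the message, was at 4.78 and 3.55 against 4.77 and 5.35 FPKM (0.38 ± 0.23, edgeR adjusted p = 0.213). The 2 lower calls make 25.0% of the list, against 20.8% of all genes tested. The calls of Upf1 and Smg1 were lost in DESeq2, with no filter on low counts, and in edgeR without wild-type replicate 1 or knockout replicate 1.

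Of the chaperones and exchangers of variant histones, 5 of 18 were higher (27.8%, near the 23.0% of all genes tested) and 2 lower (11.1%, against 20.8%), with a median of -0.12. Znhit1, a subunit of the complex that deposits H2A.Z, was at 36.6 and 41.6 FPKM in wild type, against 60.0 and 56.6 in the knockout (0.75 ± 0.11, edgeR adjusted p = 0.000587). Anp32e, which removes H2A.Z, was at 24.7 and 23.6 against 35.2 and 30.6 (0.55 ± 0.10, edgeR adjusted p = 0.00251). Other genes of the list moved in both directions. Ruvbl1 (0.80 ± 0.17, edgeR adjusted p = 0.00447) and Ruvbl2 (0.40 ± 0.11, adjusted p = 0.016) were higher. Ino80, the enzyme of another remodeller, was lower (-0.44 ± 0.13, edgeR adjusted p = 0.0219), and Vps72 (-0.32), Srcap (-0.30) and Ep400 (-0.19) did not pass. Atrx, which with Daxx places H3.3 in repeats, fell by 0.61 ± 0.10 on the log2 scale (edgeR adjusted p = 0.00101). Hira, which places H3.3 in genes, was at 7.51 and 8.64 against 6.07 and 6.98 FPKM and did not pass (-0.21 ± 0.14, edgeR adjusted p = 0.264).

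The writers and erasers of H3 lysine 27 methylation and H2A ubiquitin gave 2 higher and 2 lower of 12 tested (33.3% in either direction, below the 43.7% of all genes tested, median -0.03). Ezh1, the other methyltransferase of Polycomb repressive complex 2, was at 19.5 and 22.5 FPKM in wild type, against 8.11 and 9.12 in the knockout (-1.18 ± 0.12, edgeR adjusted p = 6.52e-05). Alternative subunits of the H2A ubiquitin ligase moved in opposite directions. Bmi1 (Pcgf4) was at 4.88 and 5.27 against 10.9 and 9.72 FPKM (1.12 ± 0.14, edgeR adjusted p = 0.000288), and Pcgf2 at 12.1 and 14.8 against 5.03 and 5.84 (-1.23 ± 0.16, edgeR adjusted p = 0.000361).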

How the data were processed

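RNA was measured in 4 libraries of mouse colon epithelial cells. The labels' protocols name Trizol for extraction and a TruSeq RNA kit from Illumina for the libraries. The authors deposited an estimated count (expected count) for each gene and library, and beside it an FPKM value and a length, per the file headers. Between 78.8% and 80.2% of the counts were whole. The submitters' processing notes name Bowtie2, BWA and the human build hg19, with no role, although the samples are mouse. No source used here names the tool that made the estimated counts. Gene identifiers matched the RefSeq mouse gene table (GRCm38.p6) for 18820 of 18872 (99.72%), which gave symbols. A gene absent from a file was counted as 0.

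Estimated counts were rounded to whole numbers. The test was edgeR's, version 4.0.16 under R 4.3.3 (filterByExpr with a minimum count of 10, TMM, glmQLFit, glmQLFTest, 2 libraries against 2, two-sided, Benjamini-Hochberg adjustment over 13608 genes with a threshold of 0.05). The biological coefficient of variation was 12.9%. The procedure was tested on simulated data. Standard errors were obtained from each log2 fold change and its F statistic. Replicates differed beyond sampling noise (chi-square per degree of freedom 2.18 for wild type and 2.95 for knockout, and at least 38.25 across genotypes) and were kept separate. Between 5037367 and 5446998 counts per library limit precision for genes with few counts. Coordinates and stem-loops come from matches to GENCODE M21 transcripts (GRCm38) through Entrez identifiers.

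The members and lists were chosen with earlier results of these data known. Named with values are the tested variants, replication-dependent members past the threshold, the 2 most abundant of each family, and in each pathway list the 3 genes with the smallest p besides Slbp, Npat, Asf1b, Chaf1a, Hira and Ezh2. H2ac10, H2ac19, H2ac22, H2bc12, H2bc18, H2bc23, H4bc24, Ino80, Vps72, Srcap, Ep400, Ruvbl1 and Ruvbl2 were named after their values were seen. Alternatives were DESeq2 1.42.0, library totals, no filter, a mean FPKM of at least 1, limma 3.58.1 on log2(FPKM + 1) and log2(FPKM + 0.1), only genes whose transcript lists match across files, a replicate block and leaving out each library. Sums without H2ac22 and H2ac23 were added after seeing the data.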

Additional observations from a re-analysis of the deposited data

How the results depend on the processing

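The count of replication-dependent genes lower in the knockout was 12 and lay between 9 and 17 under 8 alternatives that kept all 4 libraries, and between 11 and 19 with 1 library left out, the highest without knockout replicate 2. With a library left out, the lone library of its genotype is assumed to vary like the others. The count higher was 0 in the main test, and 1 with no filter on low counts, a mean FPKM of at least 1, limma on log2(FPKM + 1) or log2(FPKM + 0.1) and the replicate block, and 0 to 1 with a library left out. In the first 4 of these the gene was H2bc12, with log2 fold changes between 1.89 and 5.85 (edgeR or limma adjusted p at most 0.0262). It had no wild-type counts, so a filter on mean FPKM passed it only through the knockout libraries. With the replicate block the gene was H2ac23 (log2 fold change 0.74), whose fold change was -0.28 without wild-type replicate 1 and -4.45 without knockout replicate 2. Macroh2a2 ranged from -0.31 to 0.56 with a library left out, and was -0.20 without wild-type replicate 2 and -0.31 without knockout replicate 1. Limma on log2(FPKM + 1), whose pseudocount shrinks low genes, gave H1f3 -1.83, H1f4 -1.55, H2bc8 -1.67, H4c8 -3.20 and H4c18 -2.62. The summed replication-dependent level (log2 difference -1.723) lay between -2.492 without knockout replicate 2 and -1.224 without knockout replicate 1. The summed variant level (log2 difference 0.087, described without a test) was -0.204 on genes whose transcript lists match across files, which leaves out H2az1.

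Genes called in either direction in the decay list numbered 2, and 0 in DESeq2 and with no filter, and 0 to 1 with a library left out. In the list for chaperones of variants they numbered 7, and 4 in DESeq2, 11 with library totals and 11 with the replicate block. In the list for transcription and 3′ processing they numbered 4, and 9 with the replicate block and 2 to 6 with a library left out. The number of calls among all genes also moved with the setting. In each direction it was smaller in DESeq2 and with no filter, and larger with the replicate block. With library totals fewer genes were called higher and more were called lower. No share of all genes was set beside the list counts or the replication-dependent counts above. Whether they moved beyond this general change in calling was not tested. H3c15 and H3f3a passed under the replicate block (adjusted p = 0.00263 and 3.58e-05), with library totals (0.0415 and 0.0175) and on matching transcript lists (0.0331 and 0.0368). H3f3a also passed in both limma fits and without wild-type replicate 2, and H3c15 without knockout replicate 2. The labels do not say what a number shares. Across genes, the deviations of the replicate 1 libraries from their genotype means correlated between genotypes (0.571). With 2 libraries per genotype, replicate 2 gives the same value by construction. Annotation and Rn28s1 counts also followed the number. The main test was run without a block because the labels do not define the number, so it does not account for any such shared difference. The cause of each change was not tested. Depth limits members with few counts: 24 of 41 were not tested.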

Other observations

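Cenpa, the centromeric H3 variant outside the rule, was at 8.37 and 9.19 FPKM in wild type against 26.9 and 23.2 in knockout, from 61 and 73 against 212 and 180 counts, with no overlap. The testis-type histone genes H1f6, Hils1 and H1f7 were counted at 5 or fewer in each library.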
